A study of Mus musculus with 6 samples.

Results

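This account follows 9 genes for Fc receptors and Sirp receptors in mouse bone marrow: Fcgr1, Fcgr2b, Fcgr3, Fcgr4, Fcer1g, Sirpa, Sirpb1a, Sirpb1b and Sirpb1c. They were taken from a count table of 47729 genes by matching the table's mouse Ensembl identifiers to these symbols in the GRCm38 annotation, and all 9 were found. The set was selected on the difference in counts between the genotypes, seen in an earlier look at the same table. Their own differences are therefore given as a description of the table and support nothing beyond it. The table holds bulk RNA-seq of 6 bone marrow libraries, 3 labelled Cluster_KO (cell type label Mutant) and 3 labelled Cluster_Wt (cell type label Wildtype), from a series on the SNORD113-114 cluster of small nucleolar RNA genes. The labels used here do not state strain, age, sex, the extent of the deletion or whether cells were sorted. No label ties a library to 1 animal, so the p-values measure the spread between libraries, which may in part be technical.

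The libraries held between 17663369 and 23459168 counts on genes. Levels below are CPM (counts per 1000000 gene counts) on library sizes scaled by the TMM method, and fold changes are cluster KO against wildtype from edgeR's quasi-likelihood test over 15686 genes, with Benjamini-Hochberg adjustment and a threshold of 0.05. The median log2 fold change of all tested genes was 0.00. At that threshold 27.9% of all tested genes were called, 15.9% as higher and 12.1% as lower in cluster KO. Blood cell genes were plentiful in libraries of both genotypes, with the pan-leukocyte gene Ptprc at 223 to 259 CPM and the progenitor receptor gene Kit at 243 to 363 CPM. The adult globin gene Hba-a1 stood at 49.9 to 78.4 CPM in cluster KO and 112 to 208 CPM in wildtype libraries.

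Fc receptors bind the constant part of antibodies and let phagocytes, mast cells and B cells respond to what the antibody has bound. In the mouse the activating receptors encoded by Fcgr1, Fcgr3 and Fcgr4 signal through a small partner, the common gamma chain encoded by Fcer1g, which carries an immunoreceptor tyrosine-based activation motif (ITAM) and engages the kinase Syk. The receptor encoded by Fcgr2b carries an inhibitory motif (ITIM) instead and recruits the lipid phosphatase SHIP1, the product of Inpp5d. Sirp receptors form a similar pair. Sirpa binds CD47 on other cells and, through its ITIMs and the phosphatases encoded by Ptpn6 and Ptpn11, holds back engulfment by macrophages, while Sirpb1 proteins have short tails and signal through the ITAM adaptor DAP12, encoded by Tyrobp.

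Of the 9 genes, 4 were called higher in cluster KO (Fcgr3, Sirpb1a, Sirpb1b and Sirpb1c), 0 were called lower and 5 were not called, beside 15.9% of all tested genes called higher. In 6 of the 9, all cluster KO libraries lay above all wildtype libraries, which was so for 22.9% of all tested genes, or 46.0% with either direction counted. The low-count filter was passed by all 9, but Sirpb1a, Sirpb1b and Sirpb1c passed it through the 3 cluster KO libraries alone, with 0 wildtype libraries past the minimum. A gene that passes in this way had to differ, so the number of calls among the 9 is not read further.

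**Figure D1:**
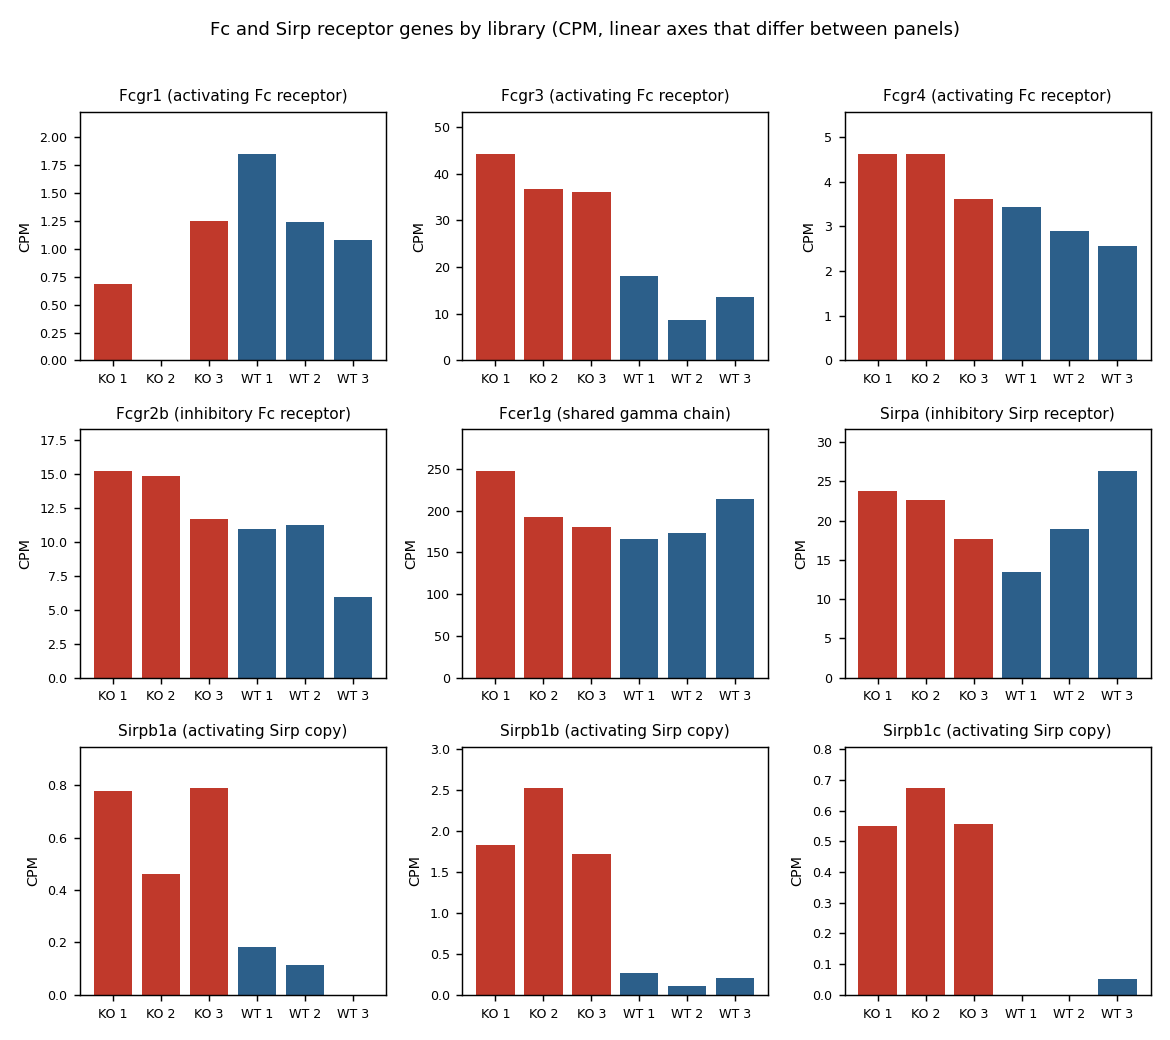
Level of each of the 9 genes in every library, in CPM on linear axes that start at 0 and differ between panels (1 bar per library; red, cluster KO libraries 1 to 3; blue, wildtype libraries 1 to 3). Fcgr3 and the 3 Sirpb1 genes are higher in every cluster KO library than in any wildtype library, while Fcer1g and Sirpa overlap between the genotypes.

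Among the activating Fc receptors, Fcgr3 had by far the most RNA and was the only one called. Fcgr3 (ENSMUSG00000059498, chromosome 1, 171051174 to 171064935, minus strand) encodes the low-affinity IgG receptor of macrophages, neutrophils, natural killer and mast cells. It was at 44.3, 36.7 and 36.1 CPM in cluster KO and at 18.1, 8.66 and 13.6 CPM in wildtype libraries. The lowest cluster KO library lay well above the highest wildtype library. The ratio of the means was 2.90 and the log2 fold change 1.53 (edgeR, SE 0.25, adjusted p = 0.0033). Leaving out any single library kept the call, with log2 fold changes of 1.30 to 1.81.

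Fcgr4, the mouse receptor for IgG2a and IgG2b on monocytes, macrophages and neutrophils (chromosome 1, 171018920 to 171029761, plus strand), was at 4.61, 4.63 and 3.62 CPM in cluster KO and 3.44, 2.89 and 2.56 CPM in wildtype libraries. The groups did not overlap, but the gap between cluster KO 3 and wildtype 1 was narrow. Fcgr4 was not called (edgeR log2 fold change 0.53 ± 0.30 SE, adjusted p = 0.212).

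Fcgr1, the high-affinity IgG receptor of monocytes and macrophages (chromosome 3, 96282909 to 96293969, minus strand), was near the limit of detection. Its raw counts were 15, 0 and 27 in cluster KO and 41, 22 and 21 in wildtype libraries. The count of 0 in cluster KO 2 allows up to 3 counts, or 0.128 CPM, for counting error only. The groups overlapped and Fcgr1 was not called (edgeR log2 fold change -1.11 ± 0.92 SE, adjusted p = 0.396). The error was almost as large as the value, which was -0.52 without cluster KO 2 and -2.02 without cluster KO 3.

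Fcgr2b, the inhibitory IgG receptor and the main Fc receptor of B cells (chromosome 1, 170958617 to 170976547, minus strand), was at 15.2, 14.9 and 11.7 CPM in cluster KO and 10.9, 11.2 and 5.94 CPM in wildtype libraries. The groups did not overlap, although cluster KO 3 stood only just above wildtype 2. The log2 fold change was 0.57 (edgeR, SE 0.27, adjusted p = 0.136), so Fcgr2b was not called. It was 0.33 without wildtype 3, the library with the lowest level, and 0.25 with cluster KO 1 left out as well.

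Fcer1g, the gamma chain that the activating receptors share (chromosome 1, 171229572 to 171234365, minus strand), was the most abundant of the 9 genes. It was at 248, 192 and 180.1 CPM in cluster KO and 166, 173 and 214 CPM in wildtype libraries. The groups overlapped, with wildtype 3 above cluster KO 2 and cluster KO 3. The log2 fold change was 0.16 (edgeR, SE 0.15, adjusted p = 0.448).

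Ratios of raw counts within a library do not depend on the library sizes. Fcgr3 had 291, 247 and 309% of the counts of Fcgr2b in cluster KO and 166, 77.3 and 228% in wildtype libraries. As a share of Fcer1g, Fcgr3 counts came to 17.9, 19.1 and 20.0% in cluster KO and 10.9, 4.99 and 6.35% in wildtype libraries. Fcgr3 thus stood higher against both its inhibitory counterpart and its signalling chain in every cluster KO library than in any wildtype library. These ratios were chosen after the levels were seen and carry no test.

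**Figure D2:**
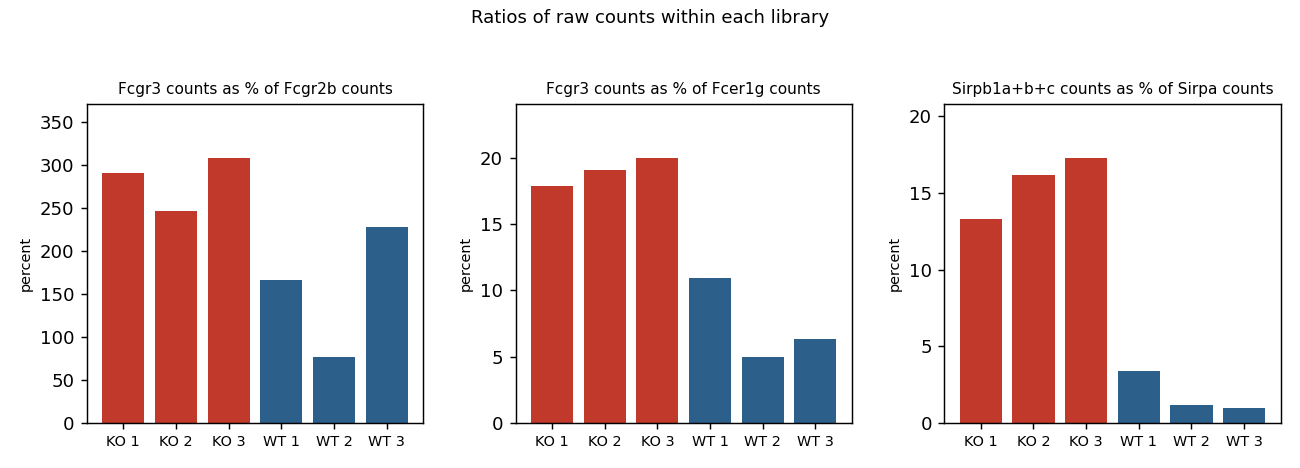
Ratios of raw counts within each library, in percent (1 bar per library; red, cluster KO; blue, wildtype): Fcgr3 against Fcgr2b, Fcgr3 against Fcer1g, and the summed Sirpb1 copies against Sirpa. All 3 ratios are higher in each cluster KO library than in each wildtype library, from 13.3 to 17.3% against 0.973 to 3.36% for Sirpb1 over Sirpa.

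Fcgr2b, Fcgr4, Fcgr3 and Fcer1g lie within 1 stretch of chromosome 1 (170958617 to 171234365). The table lists 17 genes there, of which 8 were tested. Besides Fcgr3, which was chosen for its difference, 3 were called higher and 0 lower, where 15.9% of all tested genes were called higher. They were Sdhc, a subunit of succinate dehydrogenase (0.73, SE 0.15), Pcp4l1 (1.35, SE 0.27) and Tomm40l (1.52, SE 0.46), given as log2 fold changes. The stretch was looked at for its position, and these genes are named because they were called. Cfap126, which lies between Fcgr3 and Sdhc, was tested too. Its groups overlapped and it was not called (edgeR log2 fold change 0.23 ± 0.32 SE, adjusted p = 0.625). Fcgr2b and Fcgr3 have related coding sequences (69.9% of aligned bases identical). Of the words of 50 bases in protein-coding Fcgr3 transcripts, 89.8% occur in no other gene's transcripts, so most of the Fcgr3 sequence is its own.

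Short stretches before RefSeq starts of the activating receptor genes are shown because these genes lie in the same family and were at very different levels. They were taken from RefSeq on GRCm38.p6 and are written 5′ to 3′ on the strand of the gene. The Fcgr3 start used here lies inside the gene span given above, so the Fcgr3 stretch falls within that span and not before it. Capitals mark matches, here all on the reverse strand, to GGAAGT or GAGGAA, short forms of the purine-rich sequence that the myeloid factor PU.1 and other Ets factors bind. The stretches are chr3:96293992-96294051 (Fcgr1), chr1:171059404-171059463 (Fcgr3) and chr1:171018856-171018915 (Fcgr4).
Fcgr1: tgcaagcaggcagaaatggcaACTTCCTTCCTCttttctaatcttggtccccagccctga
Fcgr3: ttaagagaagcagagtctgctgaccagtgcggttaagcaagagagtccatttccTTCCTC
Fcgr4: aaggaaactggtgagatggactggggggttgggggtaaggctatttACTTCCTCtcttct
Fcgr1 and Fcgr4 each hold both forms, overlapping in Fcgr4, and Fcgr3 holds GAGGAA alone. Over windows of 300 bases around the start, on both strands, GGAAGT occurred in 6 and GAGGAA in 3 of the 8 genes with windows. GGAAGT was in 23.8% and GAGGAA in 28.3% of all 32851 windows. A gene can have several windows, as Fcgr3 has, so these counts and shares are not alike in kind. The 6 include the near-identical copies Sirpb1a, Sirpb1b and Sirpb1c, which are not independent, and in Sirpb1b the match lay after the start. Such matches are letters in a window and describe no binding.

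Sirpa, the inhibitory receptor of the Sirp family (chromosome 2, 129592835 to 129632228, plus strand) was at 23.7, 22.6 and 17.7 CPM in cluster KO and 13.5, 18.9 and 26.3 CPM in wildtype libraries. The wildtype libraries spanned the whole cluster KO range. Sirpa was not called (edgeR log2 fold change 0.13 ± 0.25 SE, adjusted p = 0.732), and it was -0.08 without wildtype 1.

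The 3 Sirpb1 genes lie side by side on the minus strand of chromosome 3 and are nearly the same sequence. Their coding sequences of 1191 bases were 97.5% identical between Sirpb1a and Sirpb1b, 97.4% between Sirpb1a and Sirpb1c and 98.3% between Sirpb1b and Sirpb1c, against 59.1% between Sirpb1a and Sirpa. Shown are 60 coding bases in which the copies differ (bases 192 to 251 of the coding sequence, GENCODE M21). Reads can be told apart only at such places. The stretch had the most varying positions of those compared, leaving out any where Sirpb1c differed by more than a set cap. Capitals mark the 9 positions that are not the same in all copies.
Sirpb1a: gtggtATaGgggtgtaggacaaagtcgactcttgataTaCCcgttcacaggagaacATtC
Sirpb1b: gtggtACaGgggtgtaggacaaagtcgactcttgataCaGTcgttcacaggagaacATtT
Sirpb1c: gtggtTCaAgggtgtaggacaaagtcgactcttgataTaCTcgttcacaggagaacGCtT
Of words of 50 bases in their protein-coding transcripts, 56.2% (Sirpb1a), 33.1% (Sirpb1b) and 41.0% (Sirpb1c) occur in no other gene. At 100 bases the shares were 75.3, 49.2 and 60.6%. Reads from the remainder fit more than 1 copy, and the labels used here state no read length. The counts of the single copies are therefore uncertain.

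The copies also share the sequence before their starts. The 130 bases below, from RefSeq on GRCm38.p6 (chr3:15426535-15426664, chr3:15575080-15575209 and chr3:15848543-15848672, minus strand), differ at 8 positions, in capitals, and lie wholly before each annotated start. They are shown because the copies were higher together.
Sirpb1a: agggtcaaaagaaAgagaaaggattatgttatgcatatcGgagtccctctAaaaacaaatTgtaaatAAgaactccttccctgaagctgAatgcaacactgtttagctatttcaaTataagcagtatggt
Sirpb1b: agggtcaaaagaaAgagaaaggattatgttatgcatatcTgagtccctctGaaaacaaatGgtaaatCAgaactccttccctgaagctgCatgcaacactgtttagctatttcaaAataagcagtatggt
Sirpb1c: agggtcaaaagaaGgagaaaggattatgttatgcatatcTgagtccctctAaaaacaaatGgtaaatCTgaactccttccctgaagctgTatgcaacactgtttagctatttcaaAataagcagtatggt
Sirpb1a and Sirpb1b differ at 6 of these bases, Sirpb1a and Sirpb1c at 7, and Sirpb1b and Sirpb1c at 4.

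Sirpb1b (chromosome 3, 15495751 to 15575065) had the most reads of the copies, with raw counts of 40, 60 and 37 in cluster KO and 6, 2 and 4 in wildtype libraries. Every cluster KO library had at least 37 counts and no wildtype library more than 6. The log2 fold change was 3.31 (edgeR, SE 0.57, adjusted p = 0.00403). Sirpb1a (15371653 to 15426520) had 17, 11 and 17 counts against 4, 2 and 0. Its log2 fold change was 2.69 (edgeR, SE 0.86, adjusted p = 0.0414), a call that was lost with any single library left out (adjusted p = 0.0661 to 0.139). Sirpb1c (15795145 to 15848528) had 12, 16 and 12 counts against 0, 0 and 1. Pooled over the libraries of each genotype it had 40 counts against 1. The ratio of rates was 35.7 with an exact 95% counting interval of 6.04 to 1443, which leaves out the spread between libraries. Sirpb1c passed the low-count filter through cluster KO libraries alone, so the interval is a description only. Its fitted log2 fold change of 4.71 (edgeR, SE 0.999, adjusted p = 0.00835) depends on the prior count. It ran from 4.20 to 6.68 with 1 library left out, the highest without wildtype 3, which held the only wildtype count.

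The sum of the 3 copies does not depend on how reads were divided among them. It was 69, 87 and 66 counts in cluster KO and 10, 4 and 5 in wildtype libraries, or 3.29 ± 0.32 CPM (SD, n = 3) against 0.31 ± 0.12 CPM. All cluster KO libraries were far above all wildtype libraries. Fitted as 1 row of the same table, the sum had a log2 fold change of 3.36 (edgeR, SE 0.46, adjusted p = 0.00236), between 3.19 and 3.74 with any single library left out. Like the single copies, the sum passed the low-count filter through the cluster KO libraries alone. Its fit is therefore a description only. Reads that fit several places were left out of the gene counts by the authors' counting and made up 13.4 to 14.7% of all reads in cluster KO and 16.1 to 16.8% in wildtype libraries. How many of those came from Sirpb1 copies was not tested.

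Against its inhibitory counterpart, the Sirpb1 sum came to 13.3, 16.2 and 17.3% of the Sirpa counts in cluster KO and 3.36, 1.2 and 0.973% in wildtype libraries. Within the sum, Sirpb1b took 58.0, 69.0 and 56.1% in cluster KO and 60, 50 and 80% in wildtype libraries. The division among the copies thus overlapped between the genotypes, on only 4 to 10 wildtype counts a library.

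The copies lie between 2 other protein-coding genes, which also stand in the list of paired receptors below. Gm5150 (chromosome 3, 15946870 to 16006437), chosen for its position, had 68, 102 and 30 counts in cluster KO and 13, 19 and 14 in wildtype libraries. It was called higher (edgeR log2 fold change 1.89 ± 0.52 SE, adjusted p = 0.0225). Gm9733 on the other side had 234, 63 and 95 counts against 52, 27 and 93, and with overlapping groups it was not called (edgeR log2 fold change 1.03 ± 0.55 SE, adjusted p = 0.186). Of the 8 genes that the table lists from Gm9733 to Gm5150, these 2 and the 3 copies were tested.

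**Figure D3:**
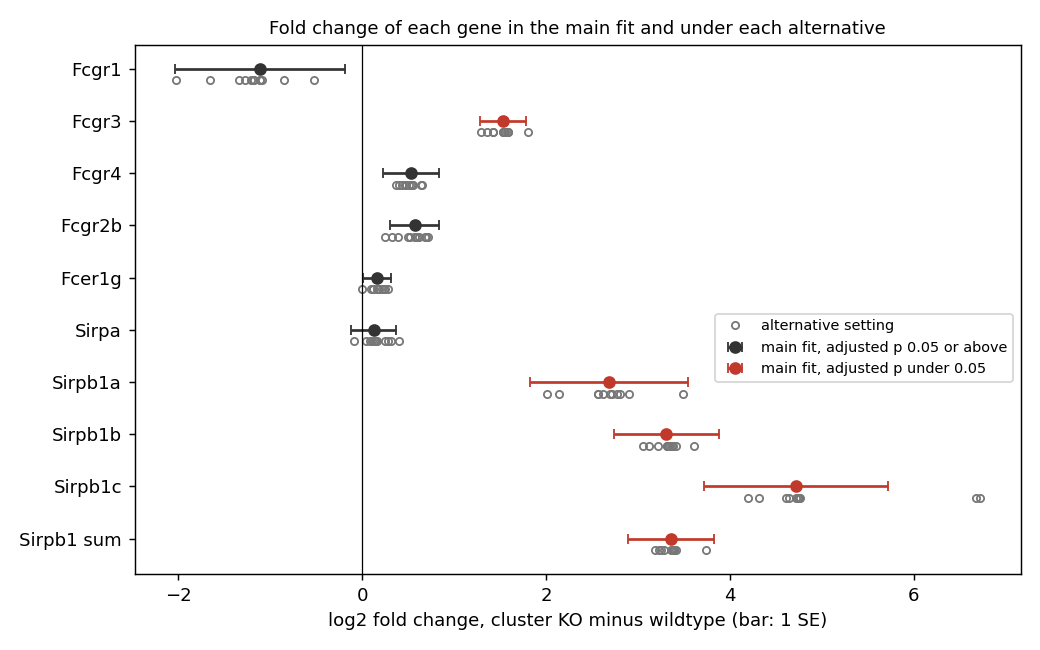
Log2 fold change of each of the 9 genes and of the summed Sirpb1 counts (filled points with 1 SE; red where the edgeR adjusted p was under 0.05). Open circles give the value under each alternative that gave an adjusted p, which DESeq2 did not for Sirpb1a and Sirpb1c. Fcgr3 lies between 1.30 and 1.81 and the Sirpb1 sum between 3.19 and 3.74, while the alternatives for Sirpa fall on both sides of 0.

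Levels of different genes can be compared only per transcript length. In CPM per kilobase the order in both genotypes began with Fcer1g, at 304 ± 53.1 in cluster KO and 272 ± 38.0 in wildtype (SD, n = 3). Fcgr3 followed at 29.5 ± 3.48 and 10.2 ± 3.58, then Fcgr2b at 9.15 ± 1.29 and 6.15 ± 1.94. Sirpa was next at 5.86 ± 0.88 and 5.37 ± 1.77. Its wildtype values (3.70, 5.19 and 7.23) overlapped those of Fcgr2b (7.17, 7.38 and 3.91), and in wildtype 3 Sirpa was the higher. Fcgr4 was at 3.41 ± 0.46 and 2.36 ± 0.35. Below it, the order changed. In cluster KO Sirpb1b (1.41 ± 0.30) stood above Sirpb1a (0.48 ± 0.13), Sirpb1c (0.40 ± 0.05) and Fcgr1 (0.25 ± 0.24), whose spreads overlapped. In wildtype Fcgr1 (0.54 ± 0.16) stood above Sirpb1b (0.14 ± 0.06), Sirpb1a (0.07 ± 0.06) and Sirpb1c (0.01 ± 0.02). These levels are not corrected for reads that fit several copies, so the place of the Sirpb1 genes beside Fcgr4 and Fcgr1, whose words of 50 bases are 100% their own, is uncertain.

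Of the 9 genes, Fcer1g and Sirpa followed the order of the neutrophil protein gene S100a9 across the libraries of each genotype. S100a9 was at 5467, 3233 and 2547 CPM in cluster KO and 1830, 2610 and 4015 CPM in wildtype libraries. The neutrophil markers S100a8, Camp, Lcn2 and Ly6g had this order too, while others did not, such as Elane, at 710.3, 2.19 and 171 CPM in cluster KO and 251, 296 and 113 CPM in wildtype libraries. By the likeness rule, which ranks genes with a mean of at least 5 CPM by Pearson correlation of log2 CPM over the 6 libraries, S100a9 was the third most alike gene to Fcer1g (r = 0.97), after Reep3 (0.99) and Ptprc (0.98). The genes most like Sirpa were Pnp2 (0.99), Ripor2 (0.98) and Cmtm8 (0.98). Fcgr3, Fcgr4 and Fcgr2b did not follow S100a9 in the wildtype libraries. As a share of S100a8 counts, Fcgr3 came to 0.783, 1.15 and 1.40% in cluster KO and 0.957, 0.301 and 0.318% in wildtype libraries, and these groups overlapped, with wildtype 1 above cluster KO 1. These correlations share the same 6 libraries, the genotype step included, and are given as a description.

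**Figure D4:**
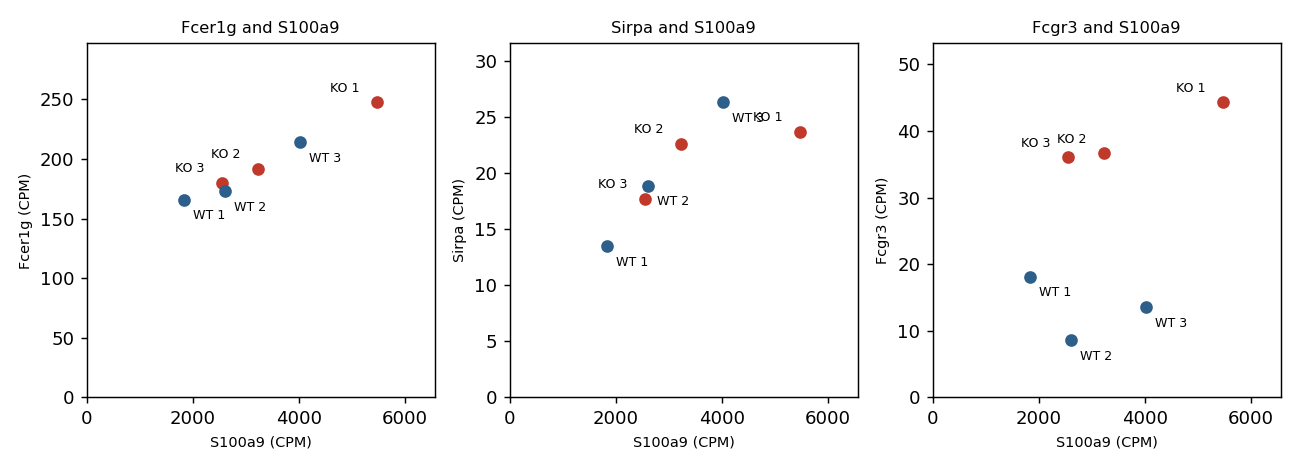
Levels of Fcer1g, Sirpa and Fcgr3 against the level of the neutrophil gene S100a9, in CPM, with 1 point per library (red, cluster KO; blue, wildtype). Fcer1g and Sirpa are higher where S100a9 is higher within each genotype, and Fcgr3 is at 36.1 to 44.3 CPM in cluster KO and 8.66 to 18.1 CPM in wildtype libraries. The part of neutrophil RNA in these values was not tested.

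The genes most like Fcgr3 by the same rule were Bst1, the CD157 ectoenzyme (r = 0.999), the MHC class II gene H2-Ab1 (0.991) and Cd84 (0.991), and Bst1 was itself called higher (log2 fold change 1.68). Those most like Sirpb1b were Pnrc1 (0.999), the myeloid transcription factor gene Cebpb (0.993) and Rcsd1 (0.992). For Sirpb1c they were Cd79b (0.997), Ppp1r18 (0.996) and Eps8 (0.996), for Sirpb1a Papss1 (0.99), Tcf7 (0.99) and Tmem177 (0.99). For Fcgr2b the list was Hspbap1, Myl12a and Gabarap (0.99 each), for Fcgr4 Rasa4 (0.996), Aph1c (0.995) and Sptan1 (0.990), and for Fcgr1 Cep192 (0.98), Ppfibp1 (0.98) and Mtf1 (0.97).

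Some marker genes of cells that carry these receptors were called too, beside 15.9% of all tested genes called higher and 12.1% called lower. In bulk RNA, fewer cells of a type and less RNA per cell cannot be told apart. Of the monocyte and macrophage markers 6 of 23 tested were higher and 0 lower, with summed levels of 2501 to 3561 CPM in cluster KO and 977 to 1048 CPM in wildtype, most of it from Lyz2. Cd14 (log2 fold change 2.87), Lyz2 (1.77), Ms4a6b (1.16), Ly86 (1.06), Cd68 (0.91) and Ctss (0.73) were the called members. Csf1r, the growth factor receptor that defines the lineage, was at 5.71, 2.95 and 1.02 CPM against 3.35, 4.64 and 4.30 CPM and was not called. Of the neutrophil markers 7 of 18 were higher and 0 lower, with overlapping summed levels of 11895 to 21933 CPM and 6757 to 12668 CPM. Of the B lineage markers 8 of 12 were higher and 0 lower, at 2151 to 2324 CPM against 726 to 791 CPM, and of the NK and T cell markers 0 of 9 were higher and 1 lower. Among dendritic cell markers 1 of 10 was higher and 0 lower, and among mast cell and basophil markers 2 of 8 were higher and 1 lower. The dendritic cell list and the NK and T cell list did not exceed the shares over all tested genes. No marker in these lists had 0 counts in all 6 libraries. The part of any of these cells in the values of Fcgr3 and the Sirpb1 genes was not tested.

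Of the 29 tested genes for ITAM adaptors, kinases and other activating signal proteins 9 were higher and 2 lower in cluster KO, with a median log2 fold change of 0.33, beside 15.9% and 12.1% of all tested genes and a median of 0.00. Tyrobp, the DAP12 adaptor of Sirpb1 receptors, was at 305, 244 and 208 CPM against 141, 146 and 195 CPM, with all cluster KO libraries above all wildtype libraries (edgeR log2 fold change 0.65 ± 0.17 SE, adjusted p = 0.0188). The GTPase gene Rac2 (1.33), the kinase gene Tec (1.16), the adaptor genes Lat2 (1.14), Lat (0.82) and Lcp2 (0.72) and the signalling scaffold gene Bcl10 (0.89) were also called higher, as log2 fold changes. Syk, the kinase that binds ITAMs, was at 78.9, 61.3 and 52.3 CPM against 51.7, 69.5 and 56.8 CPM with overlapping groups (edgeR log2 fold change 0.11 ± 0.18 SE, adjusted p = 0.668). Lyn, which phosphorylates both kinds of motif, had a log2 fold change of 0.28 (edgeR, SE 0.15, adjusted p = 0.173). The 9 higher calls became 5 without wildtype 2 or without wildtype 3, and the 2 lower calls became 0 or 1 without cluster KO 2, cluster KO 3, wildtype 1, wildtype 2 or wildtype 3.

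Of the 14 tested genes for ITIM phosphatases and inhibitory adaptors 4 were higher and 2 lower, with a median of 0.01, and the 2 phosphatases that Sirpa recruits went opposite ways. Ptpn6, which encodes SHP-1, was at 156, 241 and 296 CPM in cluster KO and 110.3, 107 and 105 CPM in wildtype libraries (edgeR log2 fold change 1.10 ± 0.20 SE, adjusted p = 0.00465). Ptpn11, which encodes SHP-2, was at 40.4, 36.0 and 25.0 CPM against 59.9, 62.8 and 82.6 CPM (edgeR log2 fold change -1.02 ± 0.20 SE, adjusted p = 0.00638). For both genes the groups did not overlap. The adaptor genes Dok2 (1.44), Dok3 (0.76) and Skap2 (0.73) were higher and the Src-inhibiting kinase gene Csk (-0.41) was lower, as log2 fold changes. Inpp5d, the SHIP1 phosphatase used by Fcgr2b, was at 87.1, 80.9 and 63.1 CPM against 88.1, 86.1 and 92.3 CPM and was not called (edgeR log2 fold change -0.21 ± 0.14 SE, adjusted p = 0.304). The 2 lower calls became 1 without cluster KO 2, cluster KO 3, wildtype 1, wildtype 2 or wildtype 3.

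Of the ligand genes 6 of 13 had enough reads to be tested, 1 was higher and 2 lower. Cd47, the ligand of Sirpa, was at 721, 782 and 757 CPM in cluster KO and 812, 718 and 742 CPM in wildtype libraries, with a log2 fold change of -0.01 (edgeR, SE 0.09, adjusted p = 0.954). The IgG heavy chain gene Ighg2b was at 75.1, 63.7 and 85.5 CPM against 674, 512 and 292 CPM, well apart (edgeR log2 fold change -2.72 ± 0.26 SE, adjusted p = 5.7e-04). Ighm, for the IgM heavy chain, was higher (1.45) and Thbs1, for the CD47-binding thrombospondin 1, lower (-2.57). Igha and Igkc varied widely within a genotype, Igkc from 36.3 to 2108 CPM in cluster KO, and neither was called.

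Among other Fc receptors and proteins that handle antibody 3 of 10 tested genes were higher and 1 lower, with a median of 0.88. Fcgrt, the neonatal Fc receptor that rescues IgG from breakdown, was at 21.3, 31.1 and 37.6 CPM against 12.5, 13.5 and 7.12 CPM (edgeR log2 fold change 1.44 ± 0.28 SE, adjusted p = 0.006), with no overlap. Its partner chain B2m was lower by a small margin (-0.25, SE 0.08), a call that was lost without cluster KO 2, cluster KO 3, wildtype 1, wildtype 2 or wildtype 3. The cytosolic antibody receptor gene Trim21 (0.86) and the IgM receptor gene Fcmr (1.96) were called higher, although cluster KO 1 had less Fcmr (1.55 CPM) than wildtype 2 (1.87 CPM). Fcrl1 (1.63, adjusted p = 0.0572, edgeR) and Fcer2a (0.90, adjusted p = 0.367, edgeR) were not called.

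Other paired receptors, and receptors that use Fcer1g or Tyrobp, were more often higher than lower in cluster KO. Of 39 tested genes 19 were higher and 3 lower, with a median log2 fold change of 1.01. Clec4e, an Fcer1g-coupled receptor for microbial glycolipids, was at 44.2, 43.6 and 47.7 CPM against 20.0, 16.5 and 14.4 CPM (edgeR log2 fold change 1.41 ± 0.17 SE, adjusted p = 0.0013). The activating Cd300lb (1.89) and the inhibitory Pilra (1.60), Cd200r1 (1.36) and Cd300a (1.15) were also higher, as was Mcemp1 (1.59), a myeloid membrane protein gene placed in the same list. Inhibitory and activating receptors were thus both among the called genes. The 19 higher calls became 12 without cluster KO 2 or without wildtype 3, and the 3 lower calls became 0 or 1 without cluster KO 2, cluster KO 3, wildtype 1, wildtype 2 or wildtype 3.

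Of 24 tested genes for phagocytic effectors 11 were higher and 2 lower, with a median of 0.37. The actin regulator gene Coro1a was at 427, 575 and 620.0 CPM against 194, 199 and 162 CPM (edgeR log2 fold change 1.55 ± 0.15 SE, adjusted p = 5.7e-04). The NADPH oxidase subunit gene Ncf4 (1.34), the Arp2/3 subunit genes Arpc1b (1.18) and Arpc2 (0.67) and the GTPase gene Rac1 (0.63) were higher too. The 2 lower calls became 0 or 1 without cluster KO 2, cluster KO 3, wildtype 1, wildtype 2 or wildtype 3.

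**Figure D5:**
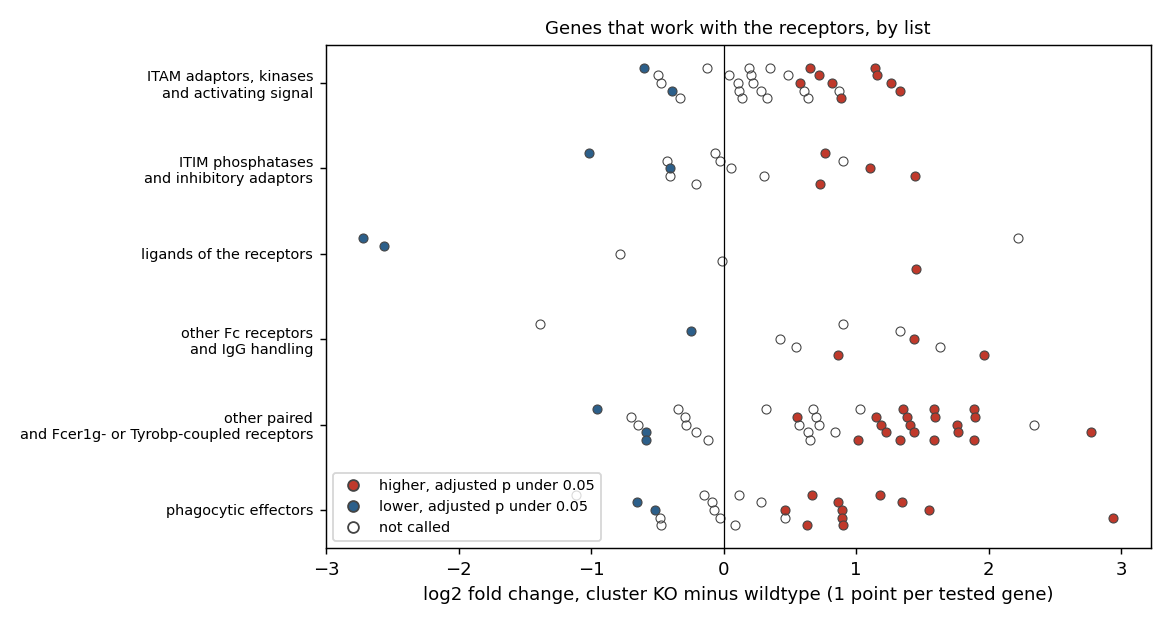
Log2 fold change of each tested gene in the 6 lists of genes that work with the receptors (1 point per gene; red, called higher; blue, called lower; open, not called). The list of other paired and adaptor-coupled receptors has 19 of 39 points called higher, with a median of 1.01, and the ITIM list has 4 called higher and 2 called lower with a median of 0.01.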

How the data were processed

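Bone marrow RNA of 6 mouse libraries was sequenced after Clontech poly(A) and non-stranded Nextera XT preparation, per the labels' protocols. The submitters' processing notes name bcl2fastq, TopHat2, HTSeq and mm10. Neither names versions, counting mode, read length or annotation release. The table as deposited holds raw counts per Ensembl gene, made by the authors with no normalization. The 5 HTSeq summary rows were dropped before scaling. They took 13.4 to 16.8% as multiply aligned, 7.29 to 11.1% as outside genes and 2.71 to 2.95% as ambiguous, of all reads.

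Gene names and positions are those of GENCODE M21, built on GRCm38, which is mm10 (47224 of 47729 genes matched), and promoters from RefSeq, for 8 of the 9 genes. The test was edgeR 4.0.16 in R 4.3.3 with TMM, filterByExpr (minimum count 10) and a robust quasi-likelihood fit of genotype, tested on simulated data. Alternatives were DESeq2 1.42.0, its size factors in edgeR, no filter, length and GC trends removed, a replicate block and each library left out. A fit without cluster KO 1 and wildtype 3 was chosen after seeing the data. The genes and lists were chosen with earlier results of these data known. Besides the 9 genes and 9 fixed partners, up to 6 genes with the smallest p were named per list, less 1 that is not reported here. No 2 libraries were alike within sampling noise.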

Additional observations from a re-analysis of the deposited data

How the results depend on the processing

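Fcgr3, Sirpb1b and the Sirpb1 sum kept direction and call under all alternatives run, and Sirpb1c under those that gave it an adjusted p. In the main fit the Sirpb1 genes and their sum passed the low-count filter through cluster KO libraries alone. Their calls are a description only. Sirpb1a missed the threshold with no filter (log2 fold change 2.71, adjusted p = 0.0792), under the replicate block (2.80, adjusted p = 0.0965), without cluster KO 1 and wildtype 3 together (2.01, adjusted p = 0.135) and with any library left out (2.14 to 3.49, edgeR). DESeq2 called 2 of the 9 genes and gave no adjusted p for Sirpb1a and Sirpb1c. With 1 library left out, 3 of the 9 were called in every fit, and the log2 fold change of Sirpa ran from -0.084 (without wildtype 1) to 0.40. All genes called higher ran from 1258 to 3151 and lower from 742 to 2579 in those fits, and were 1331 and 865 under the replicate block.

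In the same fits the ITAM list had 5 to 9 higher and 0 to 3 lower, the ITIM list 1 to 2 lower, other Fc receptors 0 to 1 lower, paired receptors 12 to 18 higher and 0 to 3 lower, and phagocytic effectors 0 to 2 lower. Under the replicate block the paired receptors had 12 higher and 0 lower, the ITAM list 0 lower, the ITIM list and the effectors 1 lower each, and other Fc receptors 0 lower. With no filter the ITAM list, the ITIM list and the effectors had 1 lower each. Other Fc receptors had 0 lower with no filter, with DESeq2 and with length and GC trends removed, where paired receptors had 1 lower. Without cluster KO 1 and wildtype 3 the ITAM and ITIM lists had 1 lower each and the ligand list 2 higher. Same-numbered libraries did not deviate together (correlations of -0.20, 0.00 and -0.17 over genes), and unlike-numbered ones had -0.02 to 0.20. Deviations from means of 3 libraries cannot exclude a pairing by number.

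At these depths a count of 0 allows 0.128 to 0.17 CPM, which limits Fcgr1 and the wildtype values of the Sirpb1 copies.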
